A study of Mus musculus with 6 samples.

Results

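The 10 genes described here encode the growth factor IGF1, its receptor Igf1r, 6 IGF-binding proteins (Igfbp2 to Igfbp7) and the receptor adaptors Irs1 and Irs2. They were chosen by gene symbol. Of the 10 genes, 8 were matched to a probe, out of 18749 named genes on the array, and these 8 had 14 probes. Igfbp6 and Irs2 were not matched and have no values here.

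IGF1 is a secreted hormone and local growth factor that binds a receptor tyrosine kinase, IGF1R, which signals through the IRS adaptors to PI3 kinase and AKT and to the RAS and MAP kinase cascade. The IGF-binding proteins are secreted carriers that hold IGFs outside the cell, and proteases such as PAPP-A release them. In small cell lung carcinoma, a neuroendocrine lung tumour, IGF signalling has long been studied as an autocrine growth loop.

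RNA was measured in 6 primary lines grown from lung tumours of C57BL/6J mice whose genotype is given as Rb1L/L, Trp53L/L in all 6. The lines form 3 pairs, each with 1 line labelled non-SMC and 1 labelled SMC, an abbreviation that the labels do not spell out. Pairs 1 and 3 are female and pair 2 is male. The labels give neither the way the alleles were deleted, nor the age of the mice, nor whether a line is a single clone or what share of its cells is tumour. Each line was hybridised once to an Agilent 1-colour array, so a group has 3 lines and 3 arrays.

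Between 26385 and 28185 of 41174 probes on an array were well above background, which is the scanner software's call of a signal clearly over its local background, and 0 were saturated. Of the 8 neuroendocrine markers 7 or 8 were detected in every line, and their summed level was 7.80 to 8.45 in SMC and 4.36 to 7.10 in non-SMC lines, the highest of these in non-SMC replicate 2. Of the 9 mesenchymal and fibroblast markers, 8 or 9 were detected in non-SMC lines (summed level 7.53 to 9.18) and 4 or 5 in SMC lines (-0.96 to 1.34). Col1a1, Col3a1 and Lum were detected in no SMC line, and Lum in only 1 non-SMC line. Col1a2, Pdgfra, Thy1 and Dcn were detected in all 3 SMC lines. Pdgfra, Thy1, Dcn and Lum overlapped between the groups. Thy1 was higher in SMC in pairs 1 and 3 (1.99 and 2.71) and lower in pair 2 (-1.97). Of the 6 leukocyte markers on the array, 6 were detected in non-SMC replicate 3 and 2 to 4 in the other lines, with summed levels of 0.71 to 3.73 in non-SMC and -4.15 to 0.23 in SMC lines. Cd14 alone was at 0.66, 1.96 and 3.54 in non-SMC replicates 1 to 3 and separated the groups. The other leukocyte markers overlapped between them, and in SMC replicate 3, with the highest SMC sum, Lyz2 was at 0.12. Of the 4 endothelial markers 1 was detected in each line (-4.58 to -3.97 in non-SMC, -4.65 to -4.05 in SMC), and Pecam1 and Cdh5 in none. The 6 epithelial markers summed to 0.40 to 8.48 in non-SMC and 1.88 to 8.40 in SMC lines. The part of these differences in the results below was not tested. In such bulk RNA, fewer cells of a type and less RNA per cell cannot be told apart.

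Each level below is a log2 signal relative to the 75th percentile of its array, so that 0 is the level of that percentile and 1 unit is 2-fold; each difference is SMC minus non-SMC on the same log2 scale. A gene with several probes is represented by the one with the highest mean signal. Differences were tested with limma with the pair in the model, over 19848 features, and passed at a Benjamini-Hochberg adjusted p under 0.05. The labels do not say that the pairs come from separate animals. The p-values, intervals and ± values (standard errors, SE) are those of limma. They rest on the spread between these 3 pairs of lines, moderated by the spread of all features.

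Among the 8 genes, Igfbp4 was lower in the SMC lines and 0 were higher, against 3.03% of all 19848 features lower and 0.156% higher. Igf1, Igfbp3, Igfbp7 and Irs1 also lay lower in all 3 SMC lines than in any non-SMC line, but their differences did not pass the test. By its brightest probe Igfbp5 lay higher in every SMC line than in any non-SMC line and did not pass, and Igf1r and Igfbp2 overlapped between the groups. At an unadjusted p under 0.05, limma gave 5 lower and 1 higher of the 8, against 11.8% of all features lower and 14.9% higher.

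Over all features, the counts were 602 lower and 31 higher, or 974 lower and 239 higher when arrays were scaled to their median. All SMC lines lay below all non-SMC lines for 15.4% of features, and for 5 of the 8 genes. The reverse held for 22.8% of features and for 1 of the 8. The median difference of the 8 genes was -3.11, against 0.18 for all features. Igf1, Igfbp3 and Igfbp4 were well above background on all 3 non-SMC arrays but not on all SMC arrays, so they entered the test through the group in which they were high.

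**Figure D1:**
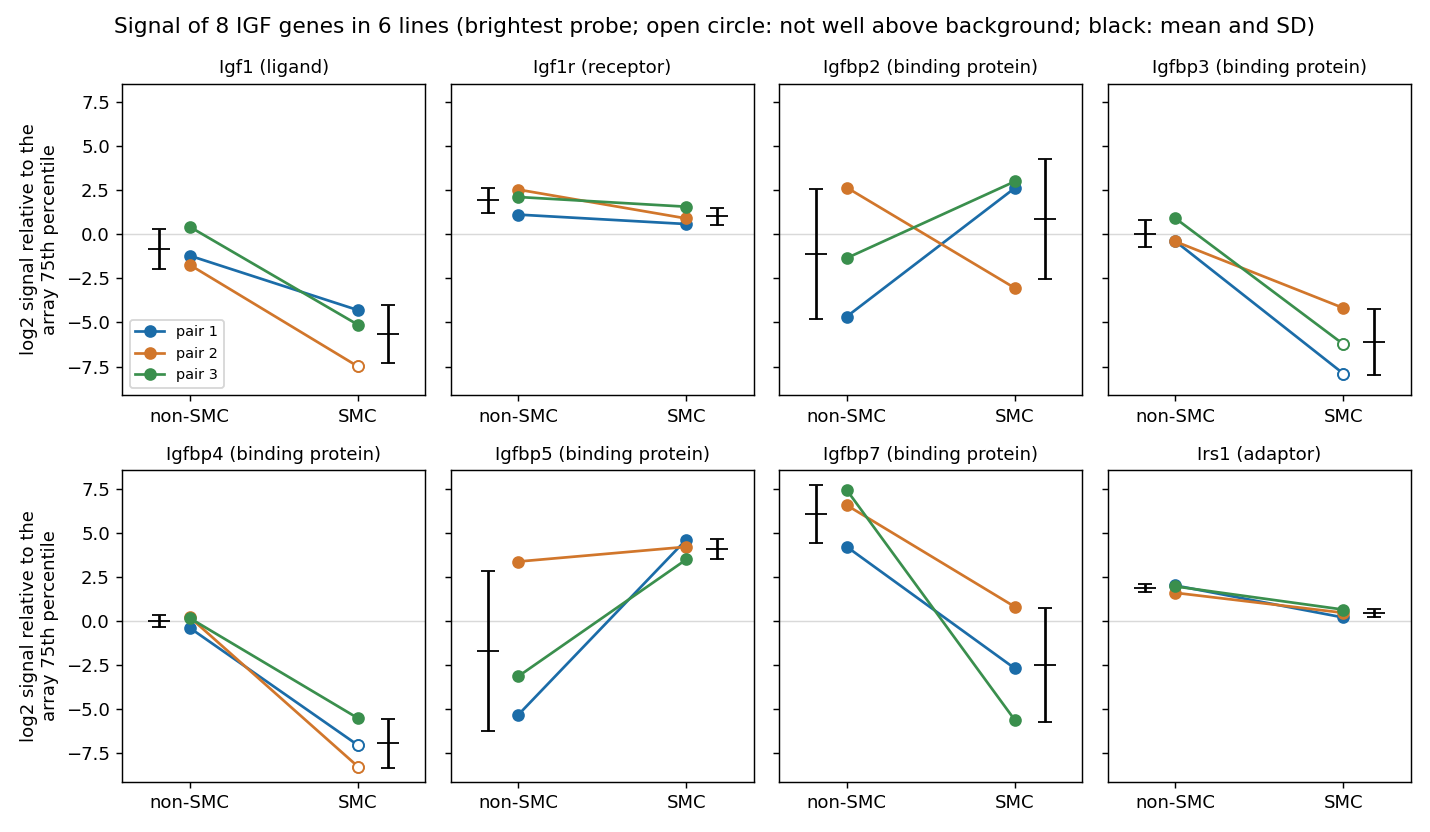
Log2 signal relative to the array's 75th percentile (vertical axis) in the non-SMC and SMC line of each pair, for the brightest probe of each of 8 IGF genes; lines join a pair, open circles are signals not well above background, and black bars give the mean and SD of 3 lines. Igf1, Igfbp3, Igfbp4, Igfbp7 and Irs1 are lower in the SMC line of every pair, whereas Igfbp2 is lower in pair 2 and higher in pairs 1 and 3.

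The promoters of the 4 binding-protein genes whose brightest probe separated the groups are shown for reference, although only Igfbp4 passed the test. These are the 250 bases before the start of Igfbp4, Igfbp3, Igfbp7 and Igfbp5, from RefSeq on GRCm38.p6, at chr11:99040994-99041243 (+ strand), chr11:7213924-7214173 (- strand), chr5:77408046-77408295 (- strand) and chr1:72874866-72875115 (- strand). Capitals mark the TATA box TATAAA and the GC box GGGCGG on either strand.
Igfbp4: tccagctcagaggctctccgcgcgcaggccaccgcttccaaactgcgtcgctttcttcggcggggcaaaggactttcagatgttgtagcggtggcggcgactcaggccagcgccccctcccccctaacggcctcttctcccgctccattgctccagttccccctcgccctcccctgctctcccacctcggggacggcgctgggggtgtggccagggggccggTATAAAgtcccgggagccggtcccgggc
Igfbp3: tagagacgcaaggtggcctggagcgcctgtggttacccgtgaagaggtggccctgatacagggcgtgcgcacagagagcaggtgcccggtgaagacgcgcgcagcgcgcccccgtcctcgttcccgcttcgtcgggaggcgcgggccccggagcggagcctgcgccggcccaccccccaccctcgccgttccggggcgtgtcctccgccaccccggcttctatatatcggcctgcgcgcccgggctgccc
Igfbp7: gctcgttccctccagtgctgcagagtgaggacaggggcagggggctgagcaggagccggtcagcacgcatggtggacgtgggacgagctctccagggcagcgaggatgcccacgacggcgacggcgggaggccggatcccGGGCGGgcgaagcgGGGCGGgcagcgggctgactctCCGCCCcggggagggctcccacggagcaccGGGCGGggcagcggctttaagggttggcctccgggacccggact
Igfbp5: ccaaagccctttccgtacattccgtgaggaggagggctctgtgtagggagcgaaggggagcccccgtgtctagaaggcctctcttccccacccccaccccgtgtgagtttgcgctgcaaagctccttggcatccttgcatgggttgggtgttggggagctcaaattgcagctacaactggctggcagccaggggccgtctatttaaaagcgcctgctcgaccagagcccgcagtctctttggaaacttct

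Among these windows, that of Igfbp4 held 1 TATA box and that of Igfbp7 held 4 GC boxes, and neither motif was in the other windows. Of 32851 RefSeq promoter windows of the same length, 12.4% held TATAAA and 32.7% held GGGCGG. G and C made up 69.2% of the Igfbp4 window, 73.2% of Igfbp3, 74.0% of Igfbp7 and 58.8% of Igfbp5, against a median of 52.4% over all windows. The AP-1 motif TGANTCA (6.75% of all windows) was in none of the 4, and the TEAD motif GGAATG (12.6%) was in that of Igfbp5 alone; the motifs do not overlap each other here. The windows held 22 (Igfbp4), 32 (Igfbp3), 26 (Igfbp7) and 10 (Igfbp5) CpG dinucleotides, with a median of 6 over all windows. These are matches of letters, and the array does not measure binding.

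The ligand Igf1 was at -1.21, -1.73 and 0.43 in non-SMC replicates 1 to 3 and at -4.30, -7.49 and -5.13 in SMC replicates 1 to 3, where the signal of replicate 2 was not well above background. Every SMC line lay under every non-SMC line, the nearest being more than 2 units apart. The difference was -4.80 ± 0.66 (moderated SE, 3 pairs), with 1 SMC signal not well above background. It missed the threshold (limma adjusted p = 0.0527, 95% interval -6.63 to -2.97). With dim signals raised to the lowest detected level of their array it was -4.37 (adjusted p = 0.0437), and it passed in 8 of 20 other settings, among them without the pair in the fit (adjusted p = 0.0453) without pair 1 (-5.66, adjusted p = 0.0489), and with neither the pair in the fit nor non-SMC replicate 2 among the lines (adjusted p = 0.0415). With normexp background correction the difference was -2.40. The dimmer Igf1 probe differed by -3.09 ± 0.90, with levels of -4.60, -4.25 and -1.31 in non-SMC and -5.24, -8.26 and -5.93 in SMC lines. By both probes non-SMC replicate 3 had the highest Igf1 signal, and in this line the summed leukocyte marker level was also highest. Of the 6 leukocyte markers, 2 were detected in non-SMC replicates 1 and 2, and 4 in SMC replicate 3, where Igf1 was at -5.13. A link between the markers and Igf1 was not tested.

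The receptor Igf1r, the tyrosine kinase through which IGF1 acts, was well above background in all 6 lines. Its brightest probe lay at 1.12, 2.54 and 2.12 in the non-SMC and 0.58, 0.90 and 1.57 in the SMC lines. The groups overlapped, since non-SMC replicate 1 lay below SMC replicate 3, although each SMC line was below its own partner. The difference was -0.91 ± 0.38 (limma adjusted p = 0.221), with an interval of -1.95 to 0.13, and the other probes gave -1.20 and -1.26 (adjusted p = 0.142 and 0.156, each probe taken as its own feature). By the first of these the groups did not overlap (lowest non-SMC line 0.68, highest SMC line 0.48), and by the other they did. In 0 of 21 other settings did Igf1r pass.

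Igfbp4, a secreted carrier that PAPP-A cleaves, was at -0.38, 0.22 and 0.17 in the non-SMC lines. In the SMC lines it was at -7.04, -8.25 and -5.51, and of these only replicate 3 was well above background. The non-SMC lines thus lay within 1 unit of each other, and the SMC lines lay at least 5 units lower. The difference of -6.93 ± 0.64 passed (limma adjusted p = 0.0236). Since 2 SMC signals were not well above background, its size is uncertain. Raising these dim signals to the floor gave -6.03, and normexp background correction gave -3.15 (limma adjusted p = 0.00835 and 0.0119). Both settings change the dim SMC signals and with them the spread used by the test. Passing there is thus not independent evidence for Igfbp4. The same limit holds in these settings for Igf1 and Igfbp3, and for Igf2bp1 and Igf2bp3 below. The second Igfbp4 probe differed by -6.15 ± 0.52.

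The Igfbp4 call was lost when pair 1 or pair 3 was left out, with differences of -7.07 and -7.56 (limma adjusted p = 0.109 and 0.0718). Without pair 3, 0 of all features passed in either direction, so that fit cannot single out Igfbp4 or any other gene below. Non-SMC replicate 1 and SMC replicate 3 lay alone on slides, and the other 4 arrays shared a slide that held both lines of pair 2 only. On that shared slide, with 2 lines a group, Igfbp4 differed by -7.84 (adjusted p = 0.0151). When a fixed term for the shared slide against the other slides was added to the model beside the pair, Igfbp4 did not pass (limma adjusted p = 0.0582). For 5 others of the 8 genes the shared slide gave -5.24 (Igf1), -6.30 (Igfbp3), -7.94 (Igfbp7), -1.45 (Irs1) and 4.30 (Igfbp5), and none of these passed (limma adjusted p = 0.0901 to 0.336).

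Igfbp3, the main carrier of IGFs in blood, was at -0.38, -0.40 and 0.92 in the non-SMC lines. It was at -7.90, -4.18 and -6.23 in the SMC lines, where only replicate 2 was well above background. The groups did not overlap, and pair 2, in which the SMC line was highest, had the smallest difference (-3.78, against -7.51 and -7.15 in pairs 1 and 3). The difference of -6.14 ± 0.88 missed the threshold (limma adjusted p = 0.0570), and it passed in 8 of 20 other settings, among them without the pair in the fit (adjusted p = 0.0234; 0.0444, 0.0308 and 0.0141 with SMC replicate 1, non-SMC replicate 2 or SMC replicate 2 also left out), without pair 2 (-7.33, adjusted p = 0.0306) and with dim signals at the floor (-5.64, adjusted p = 0.0443). It was -3.18 with normexp background correction (adjusted p = 0.0240).

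Igfbp7, a matrix-associated relative that binds IGFs weakly, was detected in every line. Its levels were 4.22, 6.57 and 7.44 in the non-SMC lines and -2.68, 0.81 and -5.61 in the SMC lines. All SMC lines lay below all non-SMC lines, by an amount that varied from -13.05 in pair 3 to -5.76 in pair 2. The difference of -8.57 ± 1.61 (interval -13.01 to -4.13) did not pass (limma adjusted p = 0.0924), and it passed without the pair in the fit (adjusted p = 0.0448, or 0.0267 with SMC replicate 2 also left out, for a difference of -10.23), with median scaling (adjusted p = 0.0351) and with normexp background correction (-7.33, adjusted p = 0.0381).

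Igfbp5, a matrix-binding carrier, ran the other way. It was high in every SMC line, at 4.63, 4.21 and 3.49. In the non-SMC lines it was at -5.32, 3.38 and -3.14, so that non-SMC replicate 2 was close to its SMC partner and the other non-SMC lines were far below theirs. The difference of 5.80 ± 1.89 did not pass (limma adjusted p = 0.163), and without pair 2 it was 8.29 and passed (adjusted p = 0.0453). Without the pair in the fit and with only non-SMC replicate 2 left out, it was 8.34 (adjusted p = 0.00508). The dimmer Igfbp5 probe gave 3.91 ± 1.19, and by it the groups overlapped, with non-SMC replicate 2 at -2.29 and SMC replicate 3 at -2.48. Non-SMC replicate 2 also had the highest neuroendocrine marker level of its group, at 7.10 against 4.94 and 4.36.

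Igfbp2, the next gene to Igfbp5 on its chromosome and another secreted carrier, had no shared direction over the pairs. Its levels were -4.67, 2.66 and -1.35 in the non-SMC lines and 2.63, -3.05 and 2.999 in the SMC lines. SMC was higher by 7.29 and 4.35 in pairs 1 and 3 and lower in pair 2, where the difference was -5.70. The fitted difference of 1.98 ± 2.77 had an interval of -5.66 to 9.63 (limma adjusted p = 0.678), so these lines set only wide limits on it.

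The adaptor Irs1, which docks PI3 kinase on the activated receptor, had the smallest spread within groups. It was at 2.02, 1.60 and 1.97 in the non-SMC lines and at 0.21, 0.47 and 0.65 in the SMC lines, all well above background. The groups were separate in each pair, by -1.82, -1.13 and -1.32. The difference of -1.42 ± 0.31, about 2.68-fold, did not pass (limma adjusted p = 0.111; interval -2.28 to -0.57) and passed without the pair in the fit (adjusted p = 0.0369, or 0.0328 with non-SMC replicate 2 also left out). The dimmer probe, at -2.69, -2.94 and -2.63 in non-SMC and -4.53, -4.52 and -4.49 in SMC lines, differed by -1.75 ± 0.28 (adjusted p = 0.0649, each probe as its own feature).

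**Figure D2:**
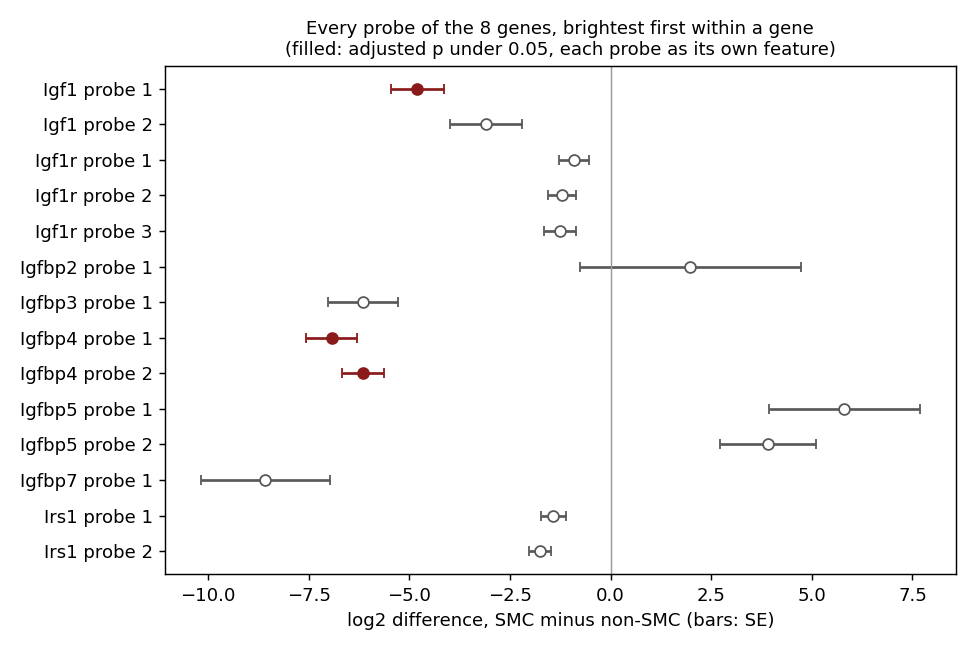
Log2 difference, SMC minus non-SMC (horizontal axis), with its moderated SE from limma, for each of the 14 probes of the 8 genes, brightest first within a gene and each probe fitted as its own feature. Filled points have a limma adjusted p under 0.05. The probes of a gene have 1 sign, and both Igfbp4 probes and the brighter Igf1 probe are filled.

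Probes of the same gene had the same sign for each of the 5 genes with several probes, and their differences ranged from -4.80 to -3.09 for Igf1 and from 3.91 to 5.80 for Igfbp5. With each probe as its own feature the brighter Igf1 probe passed (limma adjusted p = 0.0491).

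A list of 60 other genes of the pathway was measured beside these 8. Of the 57 tested, 4 were lower in SMC by limma (Htra1, Igf2bp1, Adam12 and Igf2bp3), 53 did not pass and 0 were higher. Over all features 3.03% were lower and 0.156% higher. The 4 genes were well above background on all 3 non-SMC arrays but not on all SMC arrays. They thus entered the test through the group in which they were high. At an unadjusted limma p under 0.05, 13 of the 57 were lower and 3 higher, where the shares over all features were 11.8% and 14.9%. The median difference was -0.20, against 0.18 for all features.

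Of 5 genes tested for binding-protein proteases and their inhibitors, 2 passed as lower in SMC and 3 did not, where 3.03% of all features passed as lower. All 5 differences were negative, against 41.7% of all features. Htra1 and Adam12 entered the test only through the non-SMC group, which favours that sign. The list was chosen with earlier results known, so these counts are a description. Htra1, a secreted serine protease that can cleave IGF-binding proteins, was at 5.15, 4.39 and 6.07 in the non-SMC and -4.71, -6.62 and -3.18 in the SMC lines, the second of which was not well above background. The groups lay more than 7 units apart, with a difference of -10.04 ± 0.45 (limma adjusted p = 0.00745); it did not pass without pair 3 (-10.43, adjusted p = 0.0618). Adam12, a metalloprotease that can cleave Igfbp3 and Igfbp5, was well above background in all 3 non-SMC lines and in none of the SMC lines. Its brightest probe differed by -5.06 and passed (limma adjusted p = 0.0284). With dim signals at the floor the difference was -3.26, or 9.56-fold lower by this probe, and did not pass (limma adjusted p = 0.0602). Its other probe differed by -3.86, and the call was lost in 7 of 20 other settings. Among these were also quantile normalization (-3.81, adjusted p = 0.154), normexp background correction (-1.16, adjusted p = 0.0991), without pair 1 (-4.48, adjusted p = 0.0612) and without pair 3 (-5.23, adjusted p = 0.123). Such fold values set the mean of the bright group against the lowest detected level of each array of the dim group. They depend on the probe and on the background correction and are not lower limits.

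Pappa, which encodes the IGFBP4-cleaving PAPP-A, was at -0.19, 1.70 and 2.12 in the non-SMC and -1.93, -1.98 and -3.57 in the SMC lines. The groups did not overlap, but the difference of -3.71 ± 0.84 did not pass (limma adjusted p = 0.114); on the shared slide alone it was -3.87 and passed (adjusted p = 0.0199), as it did without the pair in the fit (adjusted p = 0.0470). Its inhibitors Stc1 and Stc2, the stanniocalcins, differed by -2.12 ± 0.44 and -1.23 ± 0.30 (adjusted p = 0.107 and 0.123). Pappa2 was well above background in 0 of 6 lines.

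Among the 3 genes for proteins that bind Igf2 mRNA, Igf2bp1 and Igf2bp3 were lower in SMC and Igf2bp2 did not pass. Over all features 3.03% passed as lower, and Igf2bp1 and Igf2bp3 entered the test only through the non-SMC group. Igf2bp1 was at -0.18, -0.27 and 1.19 in the non-SMC lines and well above background in none of the SMC lines. Its brightest probe differed by -8.57 (limma adjusted p = 0.00848). With dim signals at the floor the difference was -6.54, or 93.3-fold lower by this probe, and passed (limma adjusted p = 0.0119). Of its 3 probes the smallest difference was -5.70. With normexp background correction the difference was -3.60 (adjusted p = 0.0125), and it did not pass without pair 1 or pair 3 (adjusted p = 0.0515 and 0.0618). Igf2bp3 was at -2.78, -2.71 and -1.14 in the non-SMC and -7.998, -8.38 and -4.45 in the SMC lines, of which only the third was well above background. Its difference of -4.73 ± 0.58 passed (adjusted p = 0.0417). It was -3.47 with dim signals at the floor (adjusted p = 0.0172) and -1.62 with normexp background correction (adjusted p = 0.0405), and the call was lost in 11 of 20 other settings: it did not pass without the pair in the fit (adjusted p = 0.0647), nor without pair 1, 2 or 3 (-4.49, -4.27 and -5.45; adjusted p = 0.167, 0.0691 and 0.0709).

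Of the other ligands, receptors and carriers, 0 of 6 tested passed by limma, and 1 was lower and 2 higher at an unadjusted p under 0.05. The shares over all features were 3.03% lower and 0.156% higher by adjusted p, and 11.8% and 14.9% by unadjusted p. Igfbpl1, a binding-protein-like gene, was at 0.31, -1.46 and 0.17 in the SMC lines and well above background in only 1 non-SMC line, with a difference of 5.88 ± 1.28 (adjusted p = 0.111) that passed without pair 2 (7.52, adjusted p = 0.0387) and without the pair in the fit (adjusted p = 0.0422). Igfals, the acid-labile subunit that stabilises circulating IGF complexes, differed by 2.85 ± 0.92 (adjusted p = 0.162), by 4.07 without pair 2 (adjusted p = 0.0495) and by 0.37 with normexp background correction (adjusted p = 0.374). The normexp difference of Igfbpl1 was 2.62 (adjusted p = 0.0721). Igf2r, a receptor that clears IGF2, lay between 2.40 and 2.90 in the non-SMC and between 1.44 and 2.02 in the SMC lines, a difference of -0.91 ± 0.28 (adjusted p = 0.153). Insr, the insulin receptor, differed by 0.78 ± 0.38 (adjusted p = 0.270), and its other probe by -0.10.

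Downstream, 0 of the 24 PI3K, AKT, FOXO and MTOR genes passed by limma (2 lower and 1 higher at an unadjusted p under 0.05), counts to be read against the same 11.8% and 14.9%, and 12 differences were negative and 12 positive. The largest were those of the transcription factors Foxo1, at -1.60 ± 0.46, and Foxo4, at 1.27 ± 0.38 (adjusted p = 0.143 and 0.148). Among 13 adaptors and negative regulators 0 passed (2 lower at an unadjusted p under 0.05): the inhibitor Grb10 differed by -2.04 ± 0.89 (adjusted p = 0.235) and the adaptor Shc1 by -1.95 ± 0.38 (adjusted p = 0.0986, or 0.0331 without the pair in the fit). Of the 6 RAS and MAP kinase genes, 0 passed (0 at an unadjusted p under 0.05), and the kinase gene Map2k1 differed by -0.62 ± 0.34.

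**Figure D3:**
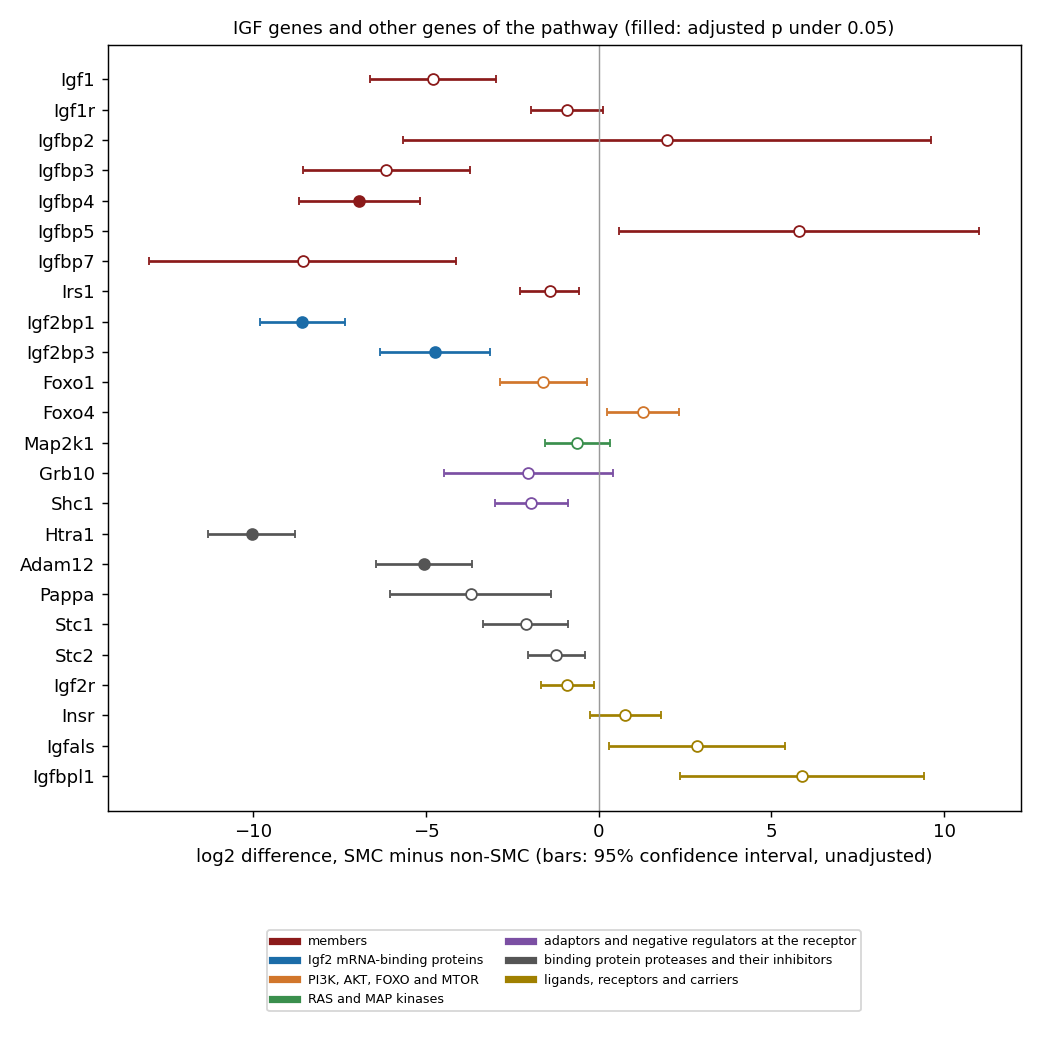
Log2 difference, SMC minus non-SMC (horizontal axis), with its unadjusted 95% confidence interval, for the 8 IGF genes and 16 other genes of the pathway, coloured by role; filled points have an adjusted p under 0.05. Filled are Igfbp4, Igf2bp1, Igf2bp3, Htra1 and Adam12, all to the left of 0.

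The genes differed in how much of their spread over the 6 lines lay between the groups and how much between the pairs. The group took 94.7% of the sum of squares of Igfbp4, 93.7% of Irs1, 87.5% of Igfbp3, 81.2% of Igf1 and 80.8% of Igfbp7. It took 54.9% for Igfbp5, 44.1% for Igf1r and 10.6% for Igfbp2. The median over all features was 40.5% for the group and 24.7% for the pair.

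Igf2, the second IGF ligand, followed the pair. Its levels were -7.09 and -7.04 in the lines of pair 1, 4.38 and 4.14 in pair 2, and -1.83 and 0.33 in pair 3, non-SMC line first. It was high in both lines of pair 2 and not well above background in either line of pair 1. The pair took 98.2% of its sum of squares and the group 0.497%; for 42.6% of features the pair took more than the group. Detected in 2 of 3 lines of each group, Igf2 was outside the tested features. Igfbp1, a carrier made mainly by liver and the neighbour of Igfbp3, lay at -8.83 and -8.55 in pair 1, -4.96 and -5.28 in pair 2 and -6.49 and -3.64 in pair 3, with 80.5% of its sum of squares between pairs and with detection in 1 non-SMC and 2 SMC lines. For Stc2 the pair took 85.6%. These shares are a description of 6 lines and were not tested.

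**Figure D4:**
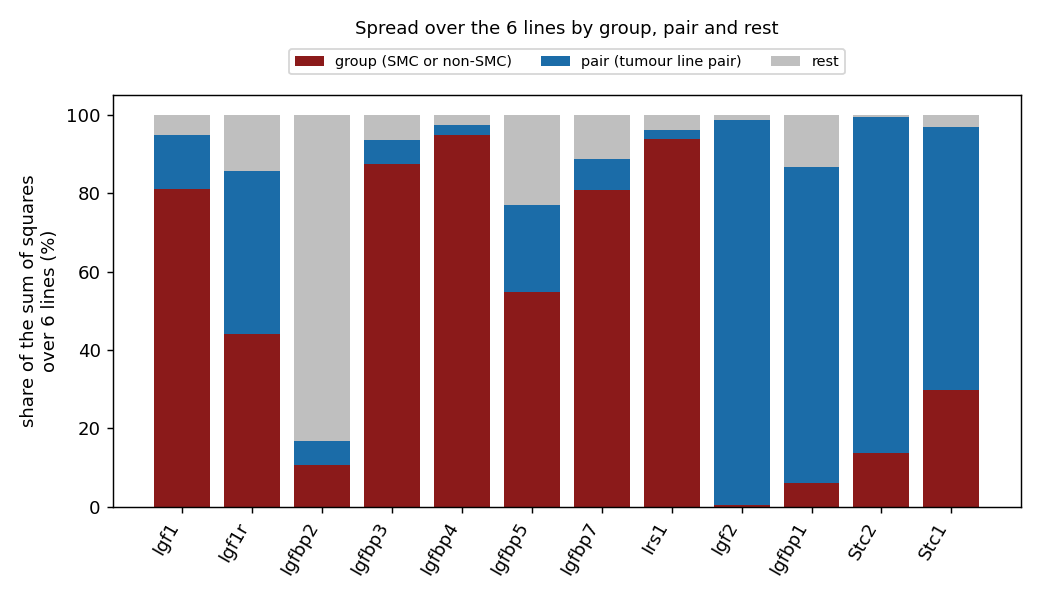
Share of the sum of squares over the 6 lines (vertical axis, %) that lay between the groups, between the pairs and in the rest, for the 8 IGF genes and for Igf2, Igfbp1, Stc2 and Stc1. The group takes most for Igf1, Igfbp3, Igfbp4, Igfbp5, Igfbp7 and Irs1, the rest 83.3% for Igfbp2, and the pair most for Igf2, Igfbp1, Stc2 and Stc1.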

How the data were processed

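Per the file headers, the arrays (design 014868) were scanned and quantified with Feature Extraction 10.7.3.1, given as 10.7 in the submitters' processing notes. The deposited intensity used is the processed signal, which the software had background-subtracted within each array and which is not normalized between arrays. The deposited table of log2 values, used as an alternative, comes with no scaling method in the labels. Its column medians were 5.07. The correlation with log2 processed signal was at least 0.996 for the same array and at most 0.960 between arrays.

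Control spots (1639) and spots flagged as outliers were left out, spots of a probe were averaged on the log2 scale, and the array's 75th percentile (485 to 696 intensity units) was subtracted. A probe was kept if it was well above background on every array of either group, and 50 probes without a usable spot were dropped. The array files name no genes: 27479 of 41174 probes got a symbol through their transcript accession and a RefSeq table (GRCm38.p6). limma 3.58.1 in R 4.3.3 (lmFit, eBayes) fitted pair and group over all features, with Benjamini-Hochberg adjustment, 2 residual and 2.07 prior degrees of freedom; the script was tested on simulated data. The number of lines limits the precision. Pairs come from the labels. Deviations of paired lines correlated at -0.01, 0.14 and -0.00237, and those of lines from different pairs at -0.148 to 0.134.

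The genes and lists were chosen with earlier results of these data known. Named are the 8 genes and, of the pathway list, those past the threshold (up to 8), the 2 largest differences of each role group without one, and Igf2, Igf2r, Insr, Igfbp1, Pappa, Stc1 and Stc2. Normexp used the median spot signal in place of the mean, which was not used here. A few items are not reported here. A marker list's summed level is log2 of the summed relative signals of its genes.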

Additional observations from a re-analysis of the deposited data

How the results depend on the processing

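The count of IGF genes lower in SMC, 1 in the planned fit, was 4 with median scaling and with normexp, 2 with the deposited values and with each probe as its own feature, 3 with dim signals at the floor, 5 with no replicate block, and 0 with detection on all 6 arrays (which leaves Igf1, Igfbp3 and Igfbp4 untested) and with the slide as a block. Pathway genes lower numbered 4, and 0 with detection on all 6 arrays, which leaves these 4 untested. They numbered 6 with no replicate block, 5 on the shared slide, and 3 or 4 in the other settings that kept all 6 lines. With median scaling and with no replicate block 1 pathway gene was higher, against 0. Features higher numbered 31, against 239 with median scaling, 54 with normexp and with each probe, 7 with no filter, 4 with detection on all 6 arrays, 274 with no replicate block, 9 with the slide block and 20 on the shared slide. Features lower numbered 602, against 974, 383 with no filter, 135 with detection on all 6 arrays and 975 with no replicate block. Leaving out a pair, or 1 line with no replicate block, gave 0 to 1 IGF genes higher and 0 to 4 lower, 0 to 2 pathway genes higher and 0 to 4 lower, 0 to 1559 features higher and 0 to 1147 lower. Without pair 3 limma called 0 features in both directions (an unadjusted p under 0.05 was found for 924 as higher, 1743 as lower), without pair 1 0 higher (1490 unadjusted) and 207 lower, without pair 2 523 and 496, and without non-SMC replicate 2 1559 and 1147. Features higher were 98, 80 and 17 without non-SMC replicate 1, SMC replicate 2 and non-SMC replicate 3. Of the single genes only Igfbp2 changed sign, to -0.86 on the shared slide and -0.68 without pair 1 (up to 5.82 without pair 2). The cause of these changes was not tested. The median difference of all features was 0.18, and 0.08 with normexp, under which dim genes had smaller differences (Igfbp4 -3.15 against -6.93). A signal not well above background limits Igf1, Igfbp3 and Igfbp4 in the SMC lines. For these genes the floor and normexp settings change the spread of the dim signals, so calls made there are not independent evidence.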

Other observations

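The named features whose levels ran most like those of Igf1, Igfbp4 and Igf1r over the 6 arrays were set out as a description. No p is given, since they were picked for their correlation on these same arrays. The part of the group difference in these correlations was not tested. For Igf1 they included Hmga2-ps1 and Fam3c (Pearson r = 0.996 and 0.994). For Igfbp4 they were Etv4, Serpinb9 and Htra1 (0.993 each). For Igf1r they were Golt1a, Trex1 and C2 (0.985, 0.983 and 0.969).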
